A study of Mus musculus with 6 samples.

Results

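BCL2 family genes that decide between survival and death of a cell were followed in the left ventricle of mice given 2-methyl-2-thiazoline (2MT), a small thiazoline compound. The 10 genes were taken by symbol: Mcl1, Bcl2, Bcl2l1, Bcl2l11, Bcl2l13, Bax, Bak1, Bid, Bad and Bbc3. Of these, 9 are carried by 1 probe set each in the platform annotation, out of 19938 genes named by a probe set with a single symbol, and Bax was not analysed here. The animals were male C57BL/6 mice (labelled C57/BL6) aged 10 weeks. The 2MT group had 3 arrays, from hearts taken 4 h after 50 mg/kg under the skin. The saline group also had 3 arrays, labelled as saline, and its labels repeat the 2MT injection text without naming a saline injection. Biotinylated cDNA from 100 ng of total RNA was put on an Affymetrix mouse array. Nothing in the labels says that each array stands for its own animal, so the p-values measure only the spread between these arrays, which may be technical.

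Proteins of the BCL2 family meet at the outer mitochondrial membrane. Guardians such as MCL1, BCL2 and BCL-XL (from Bcl2l1) hold the pore-forming effectors BAX and BAK (from Bak1) in check, and BH3-only proteins such as BIM (from Bcl2l11), BID, BAD and PUMA (from Bbc3) either neutralise the guardians or switch on the effectors. Once the effectors open the membrane, cytochrome c leaves the mitochondria and activates caspases. Heart muscle cells are scarcely replaced after birth, and MCL1, a protein with a short life, is needed for their mitochondria and survival: deleting its gene in mouse heart muscle causes heart failure.

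Values are log2 signals, so a difference of 1 is a doubling. The words rose and fell are kept for genes to which limma, a linear model with a spread shared across genes, gave an adjusted p under 0.05 over the 10547 genes whose mean signal reached 4.345, the median of all probe sets. Below that floor lay Bid and Bbc3, so 7 of the 10 genes were tested, and the pair below it is given from a fit without the floor, in which 2.05% of 19938 genes were called.

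One member rose with 2MT, and no other member passed the test. Mcl1 was 1.20-fold higher, while Bcl2l1 lay lower in every 2MT array than in any saline array without passing. Bcl2, Bak1, Bcl2l11, Bad and Bcl2l13 overlapped between the groups, as did the dim Bid and Bbc3. The 1 call among 7 tested members stands beside 4.63% of all tested genes called in either direction with 2.22% called higher and 2.41% lower. The median difference of the 7 members was 0.05, against 0.00 for all genes tested.

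**Figure D1:**
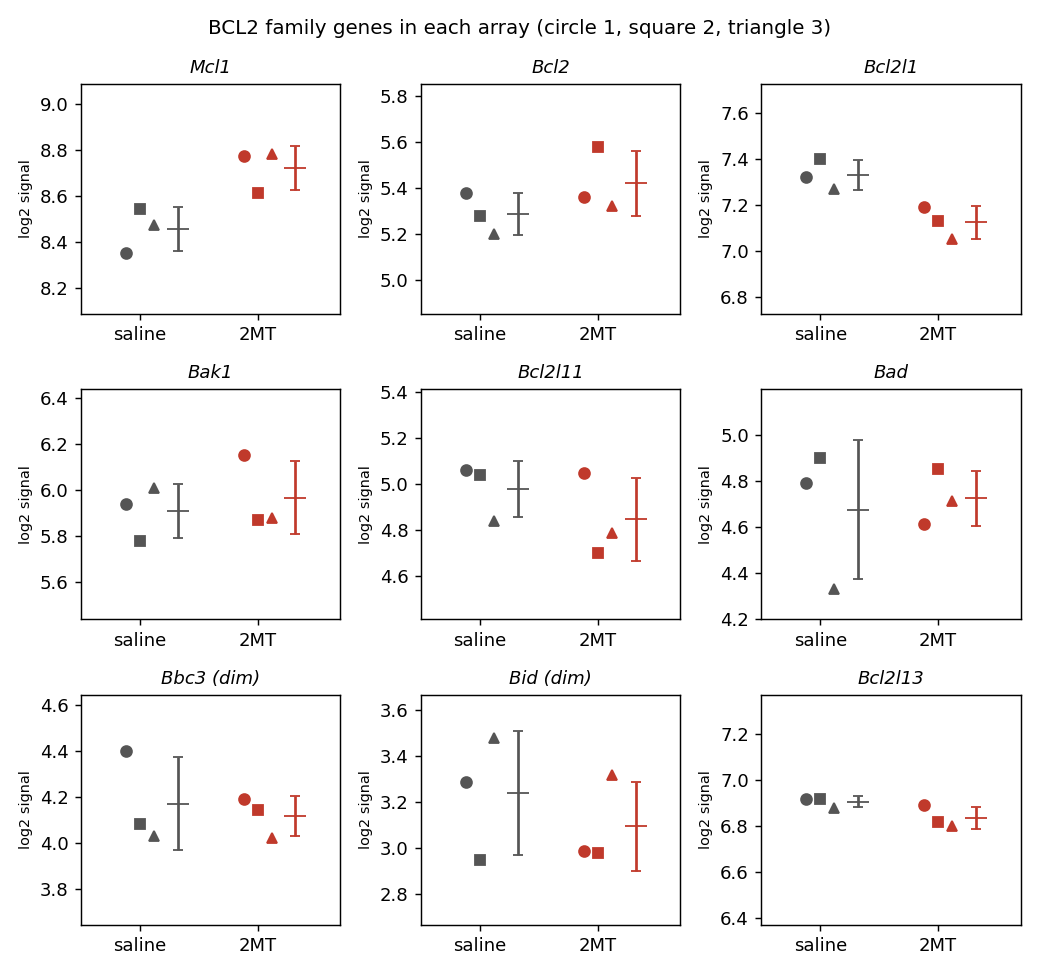
Log2 signal (vertical axes, each spanning the same width of 1 log2 unit) of the 9 members with a probe set in saline (grey) and 2MT (red) arrays; each point is an array and the bars give mean ± SD (n = 3). Mcl1 is higher in the 3 2MT arrays (8.61 to 8.78) than in the 3 saline arrays (8.35 to 8.54), Bcl2l1 is lower (7.05 to 7.19 against 7.27 to 7.40), and in the other 7 panels the groups overlap.

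Among the guardians, Mcl1 read 8.35, 8.54 and 8.47 on saline arrays 1 to 3 and 8.77, 8.61 and 8.78 on 2MT arrays 1 to 3. The lowest 2MT array lay just above the highest saline array, so the groups did not overlap. The means were 8.45 ± 0.10 in saline and 8.72 ± 0.10 in 2MT (SD, n = 3), a rise of 0.27 ± 0.07 (SE, limma adjusted p = 0.0313, 95% interval 0.13 to 0.41). On the linear scale that interval runs from 1.09-fold to 1.33-fold. An exact permutation test of 3 against 3 arrays cannot go below p = 0.1. By size Mcl1 stood at rank 197 of the 234 genes called higher, whose median rise was 0.37, and 7.93% of tested genes differed by more in either direction. Its call was lost without saline 1 (0.22, adjusted p = 0.131), without 2MT 1 (0.24, adjusted p = 0.113), without 2MT 3 (0.24, adjusted p = 0.166) and without the variance trend (limma adjusted p = 0.124). It was also lost where no floor was set (0.0532) and where each probe set was tested on its own (0.0674).

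**Figure D2:**
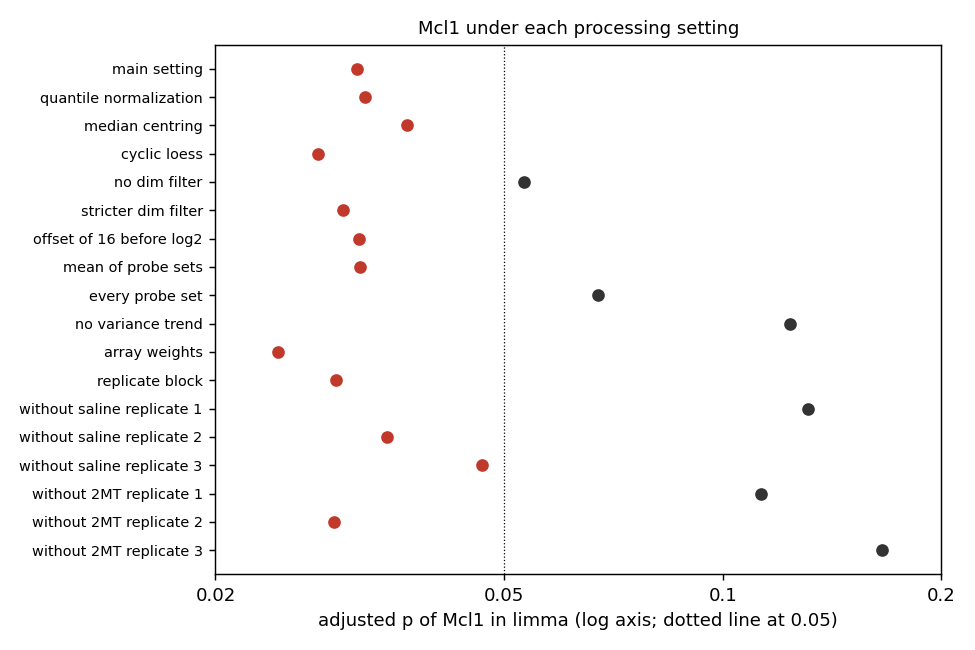
Adjusted p of Mcl1 in limma (horizontal log axis) under the main setting and 17 alternatives (vertical axis); red points pass 0.05, marked by the dotted line. It passes in 11 of the 17 alternatives, with a range of 0.0244 to 0.166.

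The 250 bases before the RefSeq start of Mcl1 and of the Bcl2l1 starts are shown because these are the members whose groups did not overlap. Coordinates are of GRCm38.p6, the build of the RefSeq table, and each sequence runs 5′ to 3′ on the gene's strand with CG dinucleotides in capitals. The Mcl1 window is chr3:95658471-95658720 on the plus strand. The Bcl2l1 windows are chr2:152831729-152831978 for the start farthest upstream and chr2:152828490-152828739 for the start farthest downstream, both on the minus strand.
Mcl1: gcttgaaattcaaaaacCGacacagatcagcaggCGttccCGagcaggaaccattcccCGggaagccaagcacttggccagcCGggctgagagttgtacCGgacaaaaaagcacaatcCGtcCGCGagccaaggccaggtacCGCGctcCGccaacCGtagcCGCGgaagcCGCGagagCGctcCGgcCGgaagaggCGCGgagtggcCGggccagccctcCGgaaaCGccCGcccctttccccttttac
Bcl2l1, upstream start: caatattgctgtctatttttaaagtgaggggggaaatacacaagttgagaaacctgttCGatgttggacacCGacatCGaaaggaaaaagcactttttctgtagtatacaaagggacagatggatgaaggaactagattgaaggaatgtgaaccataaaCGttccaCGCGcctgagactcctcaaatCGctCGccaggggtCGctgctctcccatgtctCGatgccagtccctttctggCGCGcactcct
Bcl2l1, downstream start: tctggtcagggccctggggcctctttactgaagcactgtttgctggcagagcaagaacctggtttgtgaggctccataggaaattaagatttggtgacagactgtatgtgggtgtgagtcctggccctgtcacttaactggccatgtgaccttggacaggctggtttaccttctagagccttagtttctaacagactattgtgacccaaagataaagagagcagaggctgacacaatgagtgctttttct
The Mcl1 window holds 26 CG dinucleotides, more than 90.4% of the 32851 starts in the table hold, and 64.4% of its bases are G or C. The Bcl2l1 windows shown hold 12 and 0, and another Bcl2l1 window, between them, holds 11. The table's median is 6. All 10 members have at least 1 start in the table, 16 in all, and 15 of these 16 windows hold more CG than that median.

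Bcl2l1 encodes BCL-XL from its long transcript and a shorter, death-promoting form from another splice. It read 7.32, 7.40 and 7.27 on saline arrays 1 to 3 and 7.19, 7.13 and 7.05 on 2MT arrays 1 to 3. The highest 2MT array was below the lowest saline array. The difference was -0.21 ± 0.07 (SE, 95% interval -0.35 to -0.06), from 7.33 ± 0.07 to 7.12 ± 0.07 (SD, n = 3), and it did not pass over all genes (limma adjusted p = 0.106). Its adjusted p ran from 0.0647 to 0.348 over 17 alternatives and its difference from -0.24 to -0.17. One probe set stands for the gene, so the long and short forms cannot be told apart here.

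Groups that do not overlap are common in these data, at 21.1% of tested genes (11.1% with 2MT above and 10.1% with 2MT below) and 16.2% without the floor (7.87% with 2MT above). Mcl1 and Bcl2l1 are 2 of 7 tested members, too few to set apart from the share of all tested genes. Both are guardians, but they lie in opposite directions and Bcl2l1 did not pass, so no pattern of the guardians is read from them.

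Bcl2, the founding guardian of the family, read 5.38, 5.28 and 5.20 in saline and 5.36, 5.58 and 5.32 in 2MT. The groups overlapped, and 2MT 2 was the highest array. The difference was 0.13 ± 0.10 (SE, limma adjusted p = 0.523), with an interval of -0.08 to 0.34, so anything from 0.95-fold to 1.27-fold lies within it.

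Of the effectors, Bak1 encodes the pore former that resides on mitochondria. It read 5.94, 5.78 and 6.01 in saline and 6.15, 5.87 and 5.88 in 2MT. One 2MT array was above all saline arrays and the other two were among them. The difference was 0.06 ± 0.10 (SE, limma adjusted p = 0.83), with an interval from 0.90-fold to 1.20-fold, and its sign turned without saline 2 (-0.01) or 2MT 1 (-0.04).

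**Figure D3:**
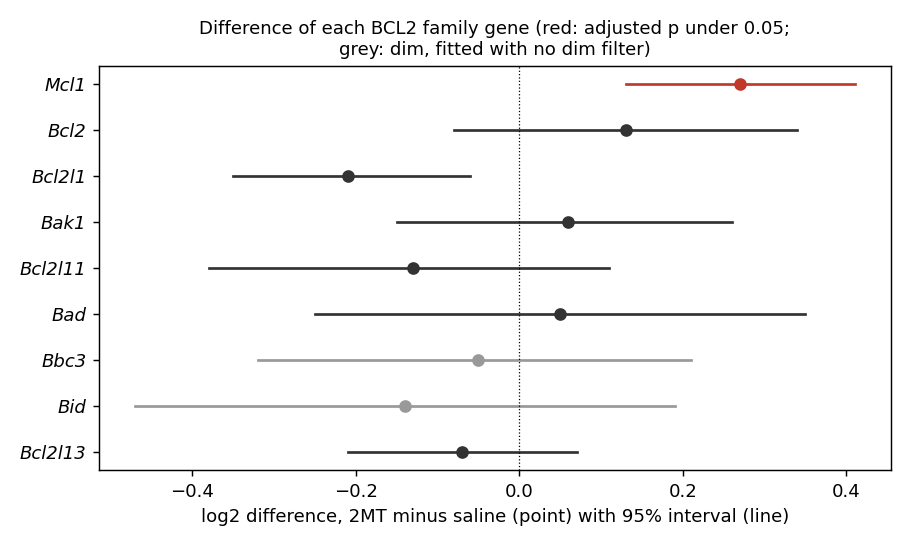
Log2 difference, 2MT minus saline (horizontal axis), of the 9 members (vertical axis) as a point with its 95% interval as a line; Mcl1, in red, is the member with an adjusted p under 0.05, and Bbc3 and Bid, in grey, come from the fit without the floor. Mcl1 (0.13 to 0.41) and Bcl2l1 (-0.35 to -0.06) have intervals that leave out 0, and the other 7 intervals include it.

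The BH3-only genes carry the signal to die, and each answers to a different kind of stress. Bcl2l11 encodes BIM, known to be induced by FOXO factors when growth factors are withdrawn. It read 5.06, 5.04 and 4.84 in saline and 5.05, 4.70 and 4.79 in 2MT. Both 2MT 2 and 2MT 3 were below the saline arrays, and 2MT 1 was as high as saline. The difference was -0.13 ± 0.11 (SE, limma adjusted p = 0.597, interval -0.38 to 0.11).

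Bad encodes a protein that kinases of growth signalling disable by phosphorylation. It read 4.79, 4.90 and 4.33 in saline and 4.61, 4.85 and 4.71 in 2MT. Saline 3 was lower than the rest, just under the floor of 4.345. The saline SD of 0.30 was the widest of the 9 members, and the difference of 0.05 ± 0.14 (SE, limma adjusted p = 0.904) became -0.12 without saline 3 and -0.01 without 2MT 2.

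Bbc3 encodes PUMA, a classical p53 target. It read 4.40, 4.08 and 4.03 in saline and 4.19, 4.14 and 4.02 in 2MT. Its mean was under the floor, where a real change may be understated, and without the floor its difference was -0.05 ± 0.12 (SE, limma adjusted p = 0.924). Bid, whose protein is cut by caspase-8 to pass a death-receptor signal to mitochondria, read 3.29, 2.95 and 3.48 in saline and 2.99, 2.98 and 3.32 in 2MT. It lay under the floor on every array, with the groups overlapping, and its difference was -0.14 ± 0.15 (SE, limma adjusted p = 0.795, interval -0.47 to 0.19). How far either gene stood above background is not known, since detection calls were not used here.

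Short motifs were searched on both strands of the 250 bases before each start, as exact matches that could overlap: TTCNNNGAA for STAT factors, GTAAACA for FOXO factors, TGACNNNGC for the core of the antioxidant response element, and CACGTG, the E-box. They match in 7.02%, 3.17%, 10.2% and 6.02% of all starts in the table. Of the 16 member windows, 0 held the STAT letters, 2 the FOXO letters, 2 the antioxidant core and 2 the E-box. The antioxidant core lies in the Bcl2l13 window, with 2 matches, and in the downstream Bcl2l1 window shown above. In that Bcl2l1 window it begins 127 bases before the start and reads on the opposite strand, as GCCCTGTCA. The E-box lies in the Bax window and in a Bbc3 window. The windows with the FOXO letters belong to the BH3-only genes Bcl2l11 and Bbc3 and are shown with the match in capitals. They lie at chr2:128125788-128126037 and chr7:16310011-16310260 of GRCm38.p6, both on the plus strand.
Bcl2l11: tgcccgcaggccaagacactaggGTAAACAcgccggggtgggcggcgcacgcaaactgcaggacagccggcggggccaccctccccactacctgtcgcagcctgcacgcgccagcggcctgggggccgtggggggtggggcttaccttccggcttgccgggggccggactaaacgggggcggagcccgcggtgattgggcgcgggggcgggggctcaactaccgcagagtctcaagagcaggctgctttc
Bbc3: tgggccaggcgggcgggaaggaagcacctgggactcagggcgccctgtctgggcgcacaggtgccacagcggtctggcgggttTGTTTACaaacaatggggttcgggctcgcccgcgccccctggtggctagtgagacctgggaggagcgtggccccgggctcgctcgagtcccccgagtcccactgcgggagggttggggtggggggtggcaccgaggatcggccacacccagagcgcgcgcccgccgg
The match begins 227 bases before the start in Bcl2l11 and 167 bases before it in Bbc3, where it reads on the opposite strand. The other windows of Bcl2l11 and Bbc3 held no FOXO letters. A match is a run of letters and not a bound site. Bcl2l11 did not pass the test, and Bbc3, under the floor, did not pass in the fit without it. The Mcl1 window held no match to the 4 motifs.

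Bcl2l13 encodes a relative in the outer membrane that is known as a receptor for removing mitochondria by autophagy. It read 6.92, 6.92 and 6.88 in saline and 6.89, 6.82 and 6.80 in 2MT. The arrays lay closest together of the 9 members, and 2MT 1 fell within the saline range. The difference was -0.07 ± 0.07 (SE, limma adjusted p = 0.641), between 0.86-fold and 1.05-fold. In simulated arrays with the spread of these, the test recovered 48% of 1.3-fold, 86% of 1.5-fold and 94% of 2-fold changes. A member that did not pass may thus still have changed. These shares are for genes drawn from all those tested and set no bound for a single member.

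The tested genes whose profile over the 6 arrays lay nearest to Mcl1, each centred on its own mean, were Gm15455, Rfwd3, Ell, Zfp825 and Gpr157. Their root mean square differences from Mcl1 were 0.0219, 0.0250, 0.0302, 0.0348 and 0.0380 log2 units, against a median of 0.18 over all tested genes. Nearness was measured across both groups, so genes picked this way were bound to differ between them much as Mcl1 did. Gm15455 rose by 0.24 ± 0.06 (SE, limma adjusted p = 0.029) and Gpr157 by 0.34 ± 0.08 (adjusted p = 0.0313), and the other three did not pass (adjusted p = 0.0734 to 0.20). Among the tested members, Bak1 lay nearest to Mcl1, at 0.172, and Bcl2l1 farthest, at 0.253.

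The wider death pathway was read through 7 lists of 91 genes, of which 66 were tested. Of these 66, 4 rose and 4 fell, 12.1% beside 4.63% of all tested genes. Among the falls, Myc passed the floor through saline alone. In the fit without the floor 6 of 79 list genes passed, beside 2.05% of all genes. The median difference of the 66 was 0.03. The lists were chosen with earlier results of these data known, so these shares are no test of the pathway. Without the variance trend, 2 of the 66 passed in limma, beside 292 of all 10547 genes. Of 8 tested further BCL2 relatives and BH3-only genes, 0 passed in limma (1 at an unadjusted p under 0.05). That gene was Bnip3, a mitochondrial BH3-only relative, at 9.87 in saline and 9.73 in 2MT (adjusted p = 0.255), and the guardian Bcl2l2 was at 4.94 and 5.13 (adjusted p = 0.401). Bcl2a1a, Bcl2a1b and Bcl2a1d sit on probe sets shared by several symbols and are not reported.

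Downstream of the membrane, 0 of 11 tested genes of the apoptosome and of mitochondrial release passed in limma (3 at an unadjusted p under 0.05), with Cycs, cytochrome c, 0.15 ± 0.05 higher (SE, adjusted p = 0.0959) and Diablo, an antagonist of caspase inhibitors, at -0.17 ± 0.07 (adjusted p = 0.238). Of 6 tested caspases and substrates, 0 passed in limma (2 at an unadjusted p under 0.05), namely the initiator Casp8 at 0.24 ± 0.09 and the executioner Casp6 at 0.21 ± 0.09 above saline (SE, adjusted p = 0.155 and 0.242). The means of all 9 tested inhibitors of apoptosis were lower in 2MT, by differences from -0.32 to -0.01. Their median was -0.10, beside 0.00 over all tested genes, and 0 passed in limma (2 at an unadjusted p under 0.05). These 2 were Birc2, a ubiquitin ligase of death-receptor complexes, at -0.32 ± 0.09 (adjusted p = 0.0509), and Cflar, the caspase-8 decoy, at -0.28 ± 0.09 (adjusted p = 0.0889). Birc5, of the same list but under the floor, went the other way, at 2.48 in saline and 2.92 in 2MT.

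Upstream, 4 of 5 tested death-receptor genes passed, in both directions, beside 4.63% of all tested genes. In the fit without the floor, 1 of the 9 with a probe set passed as higher and 2 as lower, beside 2.05% of all genes. This list too was chosen with earlier results of these data known. Tnfrsf1a, the main TNF receptor, fell by 0.52 ± 0.07 (SE, limma adjusted p = 0.000876) and passed in 17 of 17 alternatives. Fas, another death receptor, fell by 0.28 ± 0.06 (adjusted p = 0.0229), the adaptor Fadd rose by 0.39 ± 0.10 (adjusted p = 0.0412), and Tnfsf10, the ligand TRAIL, rose by 0.62 ± 0.14 (adjusted p = 0.0197). Fas and Fadd lost their calls in 6 and 8 of 17 alternatives, and Tnfsf10 in 6 of the 16 that tested it. One saline array of Tnfsf10, at 4.30, lay under the floor, and with an offset of 16 added before log2 its difference was 0.40 (adjusted p = 0.0161). Mlkl, the pore former of necroptosis, was at 4.61 in saline and 4.41 in 2MT (adjusted p = 0.41).

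Of 13 tested genes for turnover and phosphorylation of family members, 1 rose, 7.69% beside 4.63% of all tested genes (2 at an unadjusted p under 0.05). It was Rps6ka3, a kinase of the RSK family, which rose by 0.27 ± 0.07 (SE, limma adjusted p = 0.0352). Its call was lost in 8 of 17 alternatives. Huwe1 and Usp9x, chosen after their values were seen, add ubiquitin to MCL1 and remove it, and differed by -0.06 ± 0.06 and 0.06 ± 0.06 and did not pass. The kinases Pim1 and Pim3 lay 0.29 ± 0.10 and 0.12 ± 0.07 above saline without passing. Of 14 tested transcription factors known to bind family genes, 1 rose and 2 fell, 21.4% beside 4.63% of all tested genes. An unadjusted p under 0.05 was found for 7 of the 14. Rel, an NF-kappaB subunit, rose by 0.48 ± 0.10 (SE, limma adjusted p = 0.015), Stat3 fell by 0.25 ± 0.06 (adjusted p = 0.019), and Myc fell by 1.44 ± 0.13 (adjusted p = 1.51e-05). Myc read 5.70, 5.31 and 5.78 in saline and 4.21, 4.27 and 3.99 in 2MT. It passed the floor through saline alone, since every 2MT array lay under 4.345, so the size of its fall is uncertain: with the offset of 16 the difference was -0.93 (limma adjusted p = 1.96e-05), and under a stricter floor Myc was not tested. Stat3 lost its call in 5 of 17 alternatives, and Rel in 4. Nfe2l2, which encodes NRF2, was 0.25 ± 0.07 lower with an adjusted p of 0.0504, and Egr1 0.33 ± 0.10 lower with 0.0864.

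**Figure D4:**
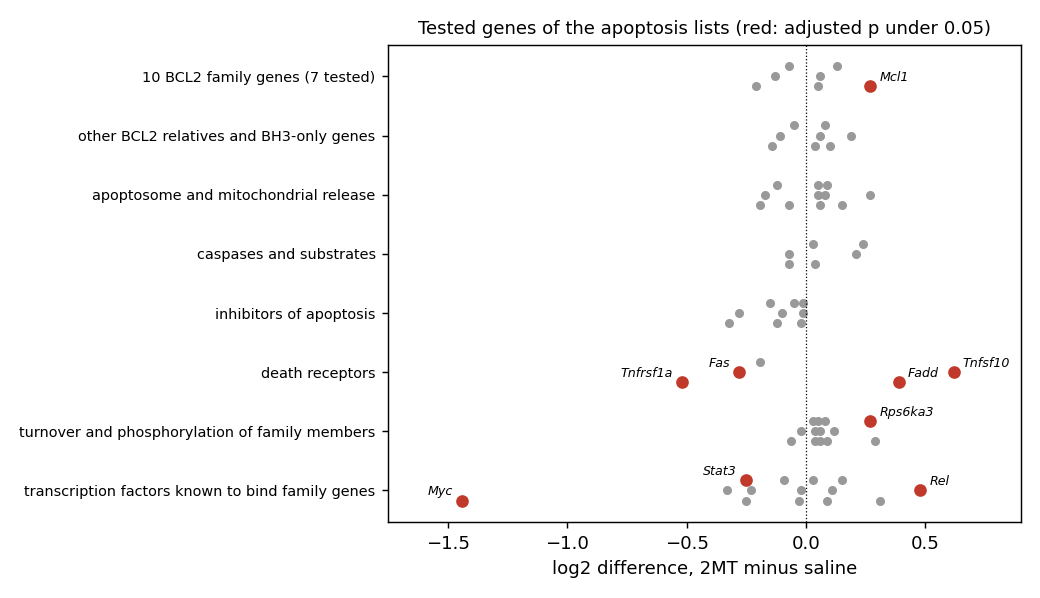
Log2 difference, 2MT minus saline (horizontal axis), of each tested gene in the BCL2 family and in 7 further lists (rows); each point is a gene, and red named points have an adjusted p under 0.05. The called genes outside the family lie in 3 of the 7 lists, from Myc at -1.44 to Tnfsf10 at 0.62. Myc passed the floor through saline alone.

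The tissue carried the markers its label asks for. The 8 ventricular cardiomyocyte markers averaged 12.39 to 12.43 on the 6 arrays, and 0 passed in limma (0 at an unadjusted p under 0.05). Saline 2 stood apart for the atrial markers Myl7 (4.95, others 3.38 to 3.63) and Myl4 (6.47, others 4.80 to 5.13), and saline 3 for the erythrocyte marker Alas2 (7.07, others 5.15 to 5.76). Without saline 2 the Mcl1 difference was 0.31 (limma adjusted p = 0.0345), and without saline 3 it was 0.28 (adjusted p = 0.0466). The Mcl1 call was lost without saline 1, 2MT 1 or 2MT 3 (limma adjusted p = 0.131, 0.113 and 0.166). The 5 neutrophil markers and 6 lymphocyte markers with a probe set were under the floor. The 5 endothelial markers did not move one way, with 2 means higher and 3 lower in 2MT, 1 gene passing and 2 at an unadjusted p under 0.05 in limma. Pecam1 fell by 0.33 ± 0.07 (SE, adjusted p = 0.02), while Kdr, a VEGF receptor, lay 0.24 ± 0.09 above saline with every 2MT array above every saline array (adjusted p = 0.157). Of 5 macrophage and 5 fibroblast markers 0 passed in limma (0 and 0 at an unadjusted p under 0.05). Of the tested markers of smooth muscle and pericytes (5), skeletal muscle (3), erythrocytes (2), adipocytes (1) and atrial muscle (1), 0 passed in limma (0, 1, 0, 1 and 0 at an unadjusted p under 0.05). In whole ventricle, fewer cells of a type and less RNA per cell cannot be told apart, and the part of cell makeup in the Mcl1 rise was not tested.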

How the data were processed

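The table holds 1 log2 signal per probe set and array, as deposited by the authors. The base of the log was read from the range of 0.51 to 13.5, since no header states it, and array medians lay between 4.32 and 4.37. MAS5 is named in the submitters' processing notes with no role or version, and other steps are not given in the sources used here. Values were used as given. Arrays have no count depth, and their number limits the precision.

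Of 28944 probe sets, 21789 had 1 symbol, 1621 several and 5534 none. A gene was represented by its brightest probe set, and genes with a mean under 4.345 were left out. Groups came from the labels. The test was limma 3.58.1 under R 4.3.3 (lmFit, eBayes with a variance trend, two-sided, Benjamini-Hochberg over 10547 genes). Correlations over these genes were 0.992 to 0.995 within groups and 0.987 to 0.990 between them. Saline 3 stood apart on the second principal component, an axis of variation among the arrays that held 17.7% of the variance. Its score there was 11.6, and the other arrays scored from -4.65 to 1.12. The procedure was tested on simulated data. Probe sets were named by the platform annotation. Promoter windows come from RefSeq (GRCm38.p6), and the last 50 bases of each, after the start, were not used. Figures were drawn with matplotlib 3.10.9.

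The members and lists were chosen with earlier results of these data known. Genes named are all members, called list genes, up to 2 more of each list by p, markers, and the 5 genes nearest to the called member. Huwe1, Usp9x, Birc5 and Pmaip1 were named outside this rule. Alternatives covered normalization, floor, offset, probe-set choice, variance model, array weights, replicate block and each array left out.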

Additional observations from a re-analysis of the deposited data

How the results depend on the processing

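The count of called members stayed at 1 (Mcl1) under quantile normalization, median centring, cyclic loess, the stricter floor, the offset, the mean of probe sets and array weights. It was 0 in limma without a floor, with every probe set on its own and without the variance trend (2 members at an unadjusted p under 0.05 in each), and 0 to 1 with each array left out (0 without saline 1, 2MT 1 or 2MT 3, with 2 members at an unadjusted p under 0.05). The 8 called genes of the wider lists became 5 with every probe set and 2 without the variance trend, and 2 to 10 with an array left out (2 without saline 1 or 2MT 3, 3 without 2MT 2, 4 without 2MT 1, 5 without saline 2). Over all genes 488 calls became 292 without the variance trend and 262 to 648 with an array left out (298 without saline 1, 276 without 2MT 2, 262 without 2MT 3). Each fit with an array left out had fewer samples, and its count over all genes varied with the array, up to 648 without saline 3. The cause of the changes was not tested. The signs of Bak1 and Bad, which did not pass, turned in some fits with an array left out (lowest -0.04 and -0.12, highest 0.11 and 0.16; the turned values were -0.04 and -0.01 for Bak1, -0.12 and -0.01 for Bad). The median difference of all genes was 0.003 under quantile normalization, 0.007 under median centring and -0.002 under cyclic loess. Same-numbered arrays deviated together weakly (correlations of 0.07, 0.04 and 0.022), so the numbers are not taken as pairs. With the replicate block 1 member, 9 list genes and 586 genes passed, and Mcl1 had an adjusted p of 0.0293 in limma.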

Other observations

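Some list genes under the floor lay apart between the groups without passing in the limma fit that sets no floor, and are named here after their values were seen. Ripk3, a kinase of necroptosis, was at 3.90 ± 0.10 in saline and 4.19 ± 0.06 in 2MT (SD, n = 3, adjusted p = 0.264), and Birc5, which encodes survivin, at 2.48 ± 0.08 and 2.92 ± 0.22 (adjusted p = 0.149). In both, each 2MT array read above each saline array, as in 7.87% of the 19938 genes of that fit. Pmaip1, the BH3-only gene of NOXA, read 3.69, 3.81 and 4.13 in saline and 3.38, 3.78 and 3.87 in 2MT, and its groups overlapped (adjusted p = 0.67).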
